A study of Mus musculus and Rattus norvegicus with 2 samples.

Results

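The family of miR-15, miR-16 and miR-195 is a set of microRNAs (miRNAs, short RNAs that repress target mRNAs) that share a seed, the stretch of bases with which a miRNA recognises its target mRNAs. It was described here in small RNA from sperm purified out of the caput, the first segment of the epididymis, through which sperm pass on their way from the testis. Members were the rows whose matched database entry, without species prefix and arm suffix, was miR-15a, miR-15b, miR-16, miR-195, miR-195a, miR-322 or miR-497. These were 6 of the 391 miRNA entries from miRBase, the registry of miRNA names, with reads in the mouse library and 7 of the 377 in the rat library. Over both libraries they made 9 of 580 entries. The family was chosen by its read counts in these libraries, above all those of miR-16-5p. Its levels by name, and the shares and ratios drawn from the same reads, are therefore given as descriptions.

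The mouse library came from C57BL/6 animals aged 2 months and the rat library from Sprague Dawley young adults of 450 g, both with normal growth and no treatment named in the labels. RNA of 18 to 45 nt was sequenced. There was 1 library per species, so no difference below has a replicate check, and species, strain, age and library cannot be told apart. How many animals each library came from is not stated in the labels. The mouse library held 11760708 listed reads and the rat library 14652889, of which miRNA entries of all databases took 6.06% and 2.22%. A single small nucleolar RNA, SNORD58, took 34.2% of the mouse reads and none of the rat reads, and therefore weighs on every mouse level. Levels are reads per 1000000 listed reads (rpm). Ratios are log2 values of rat over mouse with a pseudocount of 0.5 read. Ranges in parentheses are exact 95% intervals, which cover counting error only because PCR reads without molecular identifiers are not independent molecules.

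As background, each member is cut from a hairpin precursor that yields a 5p and a 3p arm, and 1 arm is usually kept by the silencing complex. In this family the 5p arms carry the seed. The family is known for holding back cell division through cyclins and cyclin-dependent kinases and for repressing the survival factor BCL2, and the loss of the miR-15a and miR-16-1 cluster is known from chronic lymphocytic leukaemia. miR-16 is made from 2 hairpins, and its mature sequence does not tell them apart.

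The 6 mature 5p sequences are shown because the members share the seed and some pairs differ at few other bases, which bears on how their reads can be assigned. They are mouse sequences from RefSeq (GRCm38.p6), 5′ to 3′, with the seed (bases 2 to 8) in capitals.
miR-16-5p: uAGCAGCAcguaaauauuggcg
miR-195a-5p: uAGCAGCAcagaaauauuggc
miR-15a-5p: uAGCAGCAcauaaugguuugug
miR-15b-5p: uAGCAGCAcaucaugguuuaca
miR-497a-5p: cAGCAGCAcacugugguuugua
miR-322-5p: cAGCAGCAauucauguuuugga

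All 6 had the seed AGCAGCA, which 10 of the 1679 mature names of the RefSeq table carried, and 9 of the 21 positions common to all were the same in every member. miR-16-5p and miR-195a-5p were the same at 19 of 21 positions, and miR-15a-5p and miR-15b-5p at 18 of 22. miR-16-5p and miR-497a-5p shared 11 of 22. In the mouse genome (GRCm38, GENCODE vM21) the hairpins lie in clusters. Mir16-1 (chr14:61631880-61631972, minus strand) overlaps an exon of the non-coding gene Dleu2, and the arms of Mir15a (chr14:61632038-61632096, minus strand) lie within an intron of it. Mir15b (chr3:69009772-69009835) and Mir16-2 (chr3:69009902-69009996) lie on the plus strand within Smc4, outside its exons. Mir497 (chr11:70234717-70234800) and Mir195a (chr11:70235042-70235135) lie side by side on the plus strand, with Mir497b antisense to Mir497. Mir322 (chrX:53054255-53054349) is on the minus strand of the X chromosome. The submitters' processing notes name other builds, mm9 and rn5, and no rat genome was used here.

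miR-16-5p was the member that set the libraries apart. By entry name it had 162 mouse reads (13.8 rpm) in 6 distinct sequences and 3795 rat reads (259 rpm) in 34. The log2 ratio was 4.23 (4.01 to 4.47), or 18.7-fold higher in rat. It ranked 44 among the 391 mouse entries by reads and 10 among the 377 rat entries. The other 5p arms together had 171 mouse reads (14.5 rpm) and 345 rat reads (23.5 rpm), a ratio of 0.69 (0.43 to 0.97). The family's 5p arms summed to 333 mouse and 4140 rat reads, a ratio of 3.32 (3.16 to 3.48), and most of that difference was miR-16-5p.

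**Figure D1:**
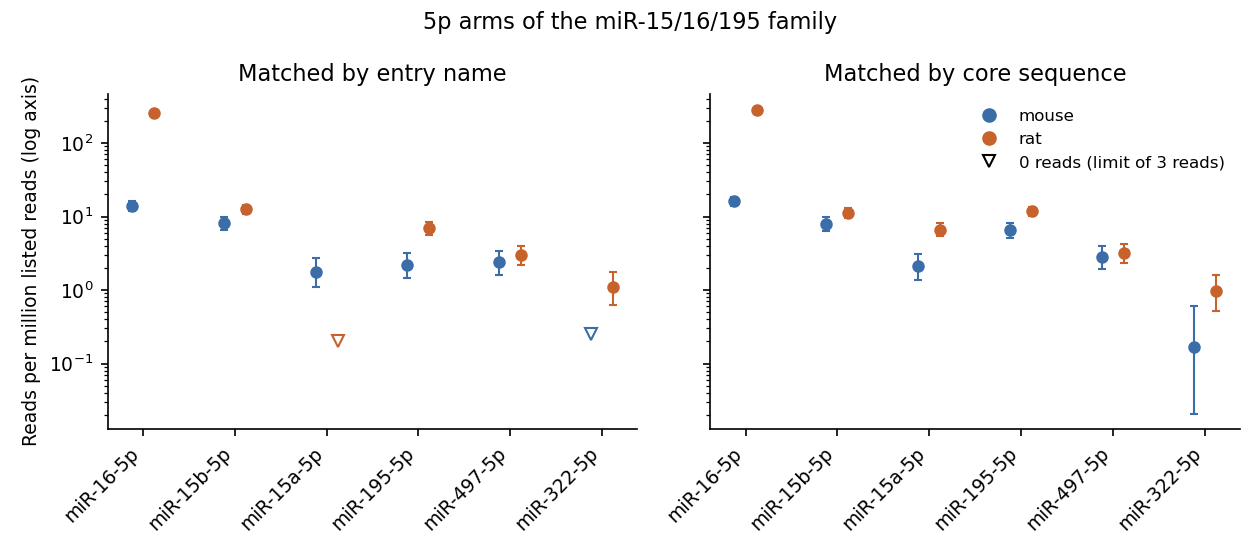
Reads per 1000000 listed reads (log axis) of the 6 family 5p arms in the mouse (blue) and rat (orange) library, by entry name (left) and by core sequence (right). Points are single libraries with exact 95% counting intervals, and open triangles mark 0 reads at the limit of 3 reads. miR-16-5p stands at 13.8 in mouse and 259 in rat by name, while for miR-15b-5p and for miR-497-5p the mouse point lies close to the rat point.

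The remaining 5p arms differed less per listed read or rested on few reads. miR-15b-5p, the partner of miR-16-2 on mouse chromosome 3, had 96 mouse reads (8.16 rpm) and 184 rat reads (12.6 rpm), a ratio of 0.62 (0.26 to 0.99). Its ratio was 0.01 (-0.35 to 0.39) scaled to listed reads without SNORD58, 0.39 (0.03 to 0.77) scaled to miRNA reads without the miR-10 family and 2.07 (1.71 to 2.44) scaled to all miRNA reads. miR-497-5p had 28 mouse reads (2.38 rpm) and 44 rat reads (3.003 rpm), a ratio of 0.33 (-0.38 to 1.07) that turned to -0.28 (-0.98 to 0.47) without SNORD58 and was 1.78 (1.07 to 2.52) scaled to all miRNA reads. The size of both differences, and for miR-497-5p the direction, thus depended on the total. miR-195-5p, listed as miR-195a in mouse, had 26 mouse reads (2.21 rpm) and 101 rat reads (6.89 rpm), a ratio of 1.62 (1.01 to 2.32).

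In the order of levels by name in mouse, miR-16-5p stood above miR-15b-5p, and miR-497-5p, miR-195-5p and miR-15a-5p followed with overlapping intervals, from 1.11 to 3.44 rpm at their ends. In rat the order was miR-16-5p, miR-15b-5p, miR-195-5p, miR-497-5p and miR-322-5p, and the intervals of neighbours did not overlap. By the core sequence match described further on, rat miR-195-5p (11.7 rpm) and miR-15b-5p (11.1 rpm) had overlapping intervals, and rat miR-15a-5p (6.62 rpm) stood above miR-497-5p (3.21 rpm). In mouse by core, miR-195-5p (6.46 rpm, 5.09 to 8.09) stood above miR-497-5p (2.81 rpm, 1.93 to 3.94). Each read was counted once whatever its length, so the levels were not scaled by length.

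Of the 9 entries, 5 had reads in a single library. This was common among all miRBase names: 391 had reads in mouse, 377 in rat and 580 in either library. Most of the 580 names were thus listed in 1 library only. These names were not paired between the species, so that miR-205-5p in mouse and miR-205 in rat count as separate names. Naming therefore raises that share, and it is not on the same basis as the family's count. miR-15a-5p had 21 mouse reads (1.79 rpm) and 0 rat reads, which allows up to 3 reads (0.205 rpm). Its listed mouse level was 8.72 times that limit, leaving out the counting error of the 21 reads. That value is one of names only, since the sequence was present in rat under other entries, as given further on. miR-322-5p had 0 mouse reads, with a limit of 0.255 rpm, and 16 rat reads (1.09 rpm, 0.62 to 1.77). Its rat level was 4.28 times that limit, again by name only, and by core it had 2 mouse reads. Among the 3p arms, miR-15b-3p had 16 rat reads (1.09 rpm, 0.62 to 1.77) and 0 mouse reads, also 4.28 times the mouse limit. miR-15a-3p had 5 mouse reads and 0 rat reads, and miR-195-3p had 1 rat read. The 3p arms summed to 5 and 17 reads, a ratio of 1.35 (-0.05 to 3.24), or 1.64 (0.15 to 3.80) by core with 4 and 17 reads, so that single reads decide whether its interval includes 0. No read was listed under the names of the 3p arms of miR-16, miR-322 or miR-497, and by core miR-322-3p had 1 rat read.

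The ratios of most other miRNAs also lay above 0. Of the 87 miRNAs with reads in both libraries and at least 100 reads over both, 45 (51.7%) were at least 2-fold higher in rat and 13 (14.9%) at least 2-fold lower, and the median ratio was 1.02 (quartiles 0.45 to 2.28). Of the 9 member entries, 3 entered that comparison, and 2 of these, miR-16-5p and miR-195-5p, were at least 2-fold higher. miR-195-5p and miR-15b-5p lay within the quartiles. miR-16-5p had the 10th highest of the 87 ratios and stood 3.21 above the median. The choice of total moves every ratio and the median by the same amount: by 1.45 with miRNA reads as the total, by -0.60 without SNORD58 and by -0.22 with miRNA reads without the miR-10 family. The distance of miR-16-5p from the median is therefore the same under these scalings by construction. Counted in distinct sequences, which is not such a shift, the distance was 1.48 over 93 miRNAs. Of the miRNAs past 2-fold, 77.6% were higher in rat, compared with 93.5% with miRNA reads as the total.

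**Figure D2:**
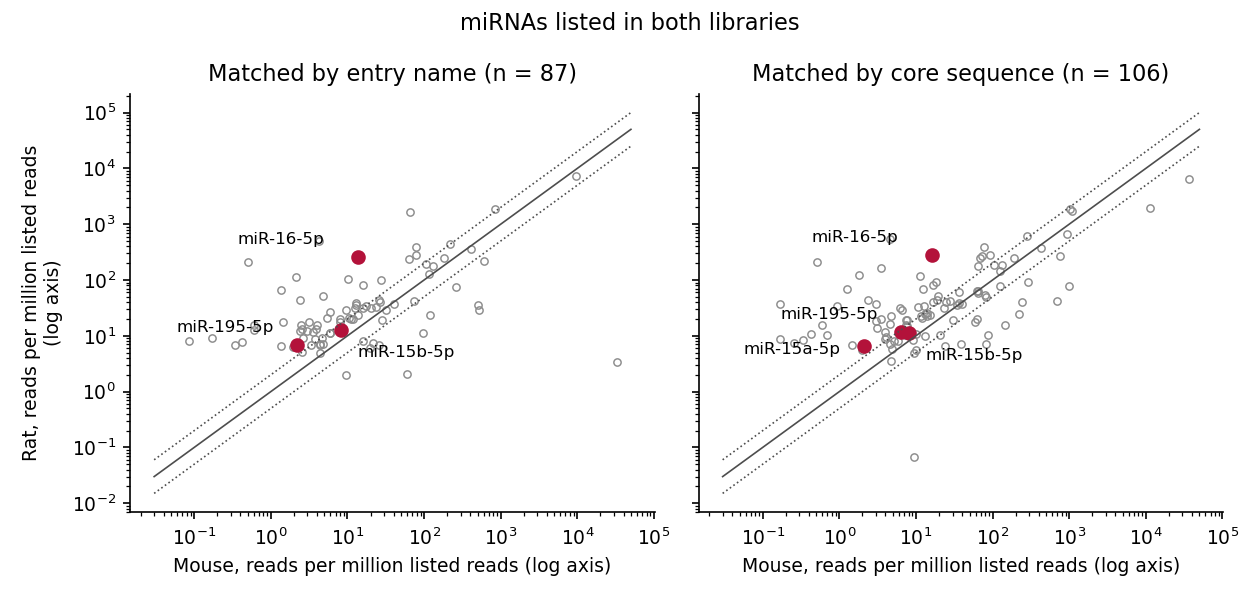
Rat against mouse levels in reads per 1000000 listed reads (both axes log) of the miRNAs with reads in both libraries and at least 100 over both, by entry name (left, 87 miRNAs) and by core sequence (right, 106). Filled points are family members, the solid line marks equal levels and the dotted lines 2-fold differences. miR-16-5p lies far above the dotted lines in both panels, and miR-15b-5p lies between them.

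The 5 miRNAs nearest to miR-16-5p by their pair of log2 rpm values were miR-25-3p, miR-30d-5p, miR-429-3p, miR-34c-5p and miR-27b-3p, at distances of 1.39 to 2.21. This likeness covers 2 libraries only. miR-25-3p had 121 mouse and 1514 rat reads, a ratio of 3.32. miR-34c-5p, a miRNA known from male germ cells, had 50 and 7364 reads.

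The make-up of the family does not depend on the library total. Its shares rest on the read counts by which the family was chosen and are descriptions. Of the family's 5p reads by name, miR-16-5p took 48.6% in mouse (43.2 to 54.2) and 91.7% in rat (90.8 to 92.5), a difference of 43.0 percentage points and an odds ratio of 11.6 (9.05 to 14.9). miR-15b-5p took 28.8% in mouse and 4.44% in rat, and miR-497-5p 8.41% and 1.06%. The mouse family was therefore spread over 5 members, while a single member made up nearly all of the rat family.

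**Figure D3:**
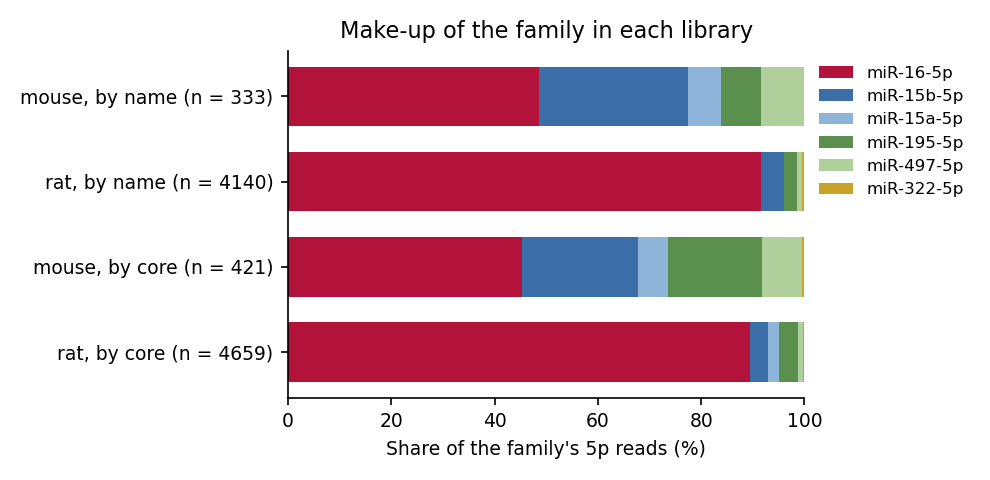
Share of the family's 5p reads (percent) taken by each member in the mouse and rat library, by entry name and by core sequence, with the number of reads beside each bar. miR-16-5p fills 48.6% of the mouse bar and 91.7% of the rat bar by name, and 45.4% and 89.4% by core sequence.

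Entry names left out part of the family. Reads were therefore also assigned by core sequence, bases 2 to 20 of the mature miRNA without a mismatch, in reads of up to 30 nt under any entry. The family's cores were mouse sequences, also for rat reads. Any rat miRNA that differs from mouse within these bases can thus be missed or undercounted. By core the family had 425 mouse and 4676 rat reads over both arms. Of these, 91 mouse reads (21.4%) and 567 rat reads (12.1%) were listed under GenBank records and not under miRBase names. The listing followed the 3′ end: all 91 mouse 5p reads and all 490 rat 5p reads that ran past the last base of the mature sequence were under GenBank records, and 0 were under a miRBase name. Of the 5p reads that ended at or before that base, all 330 in mouse and 4093 of 4169 in rat were under a miRBase name. The other 76 were rat miR-15a-5p reads. Pooled over all other miRNAs whose core belongs to a single RefSeq name, without miR-10, 1.61% of mouse reads and 10.4% of rat reads past the end had a miRBase name, compared with 97.7% and 98.3% of those that ended within it. For family reads with an intact core, counts by name are thus counts of reads that end within the entry.

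This touched the members unequally. miR-195-5p, whose mature entry is 1 base shorter than that of miR-16-5p, had 50 of 76 mouse reads (65.8%) and 76 of 172 rat reads (44.2%) under GenBank records. For miR-16-5p these were 30 of 191 (15.7%) and 408 of 4166 (9.79%), and for miR-15b-5p 0 of 94 and 0 of 163. By core, the ratio of miR-195-5p was 0.86 (0.46 to 1.27), so that it no longer reached 2-fold and stood near the median of 0.84 over the 106 miRNAs compared in this way. Of these 106, 44.3% were at least 2-fold higher in rat and 16% at least 2-fold lower.

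Rat miR-15a-5p had reads but no entry of that name. By core it had 97 rat reads (6.62 rpm) and 25 mouse reads (2.13 rpm), a ratio of 1.62 (0.99 to 2.34), the opposite direction to that by name. Of the rat reads, 77 were under a GenBank record and 20 under miR-15b-5p. These 20 were the single sequence tAGCAGCAcataatggtttg, the first 20 bases of miR-15a-5p, which differed from the miR-15b-5p entry by C12A and A20G (entry base, position counted from 1 at the 5′ end, read base). Without these reads the ratio of miR-15b-5p was 0.45 (0.08 to 0.83).

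For the rest of the family the core match kept the direction. miR-16-5p had 191 mouse reads (16.2 rpm) and 4166 rat reads (284 rpm), a ratio of 4.13 (3.92 to 4.35) and the 14th highest of 106. miR-15b-5p stood at 0.47 (0.10 to 0.86) and miR-497-5p at 0.19 (-0.48 to 0.88). miR-322-5p had 2 mouse and 14 rat reads, a ratio of 2.22 (0.37 to 5.67). The 5p sum was 421 mouse and 4659 rat reads, a ratio of 3.15 (3.01 to 3.30), and without miR-16-5p it was 0.78 (0.55 to 1.01). The share of miR-16-5p was 45.4% (40.5 to 50.3) in mouse and 89.4% (88.5 to 90.3) in rat.

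The ratio of miR-16-5p to its cluster partners differed between the libraries, while that of miR-195-5p to miR-497-5p did so within overlapping intervals. In the mouse genome miR-16-5p is encoded in both clusters, on chromosomes 14 and 3, and its reads pool them. Rat loci were not examined. By core there were 1.61 miR-16-5p reads per miR-15a-5p or miR-15b-5p read in mouse (1.27 to 2.04) and 16.02 in rat (14.1 to 18.2). These ratios rest largely on the miR-16-5p reads by which the family was chosen. miR-195-5p and miR-497-5p, neighbours on mouse chromosome 11, stood at 2.30 to 1 in mouse (1.51 to 3.58) and 3.66 to 1 in rat (2.64 to 5.17), with overlapping intervals. Within the miR-15 pair, which is of different clusters, miR-15b-5p outnumbered miR-15a-5p 3.76 to 1 in mouse (2.40 to 6.10). In rat this was 1.68 to 1 (1.30 to 2.18), and the intervals did not overlap.

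**Figure D4:**
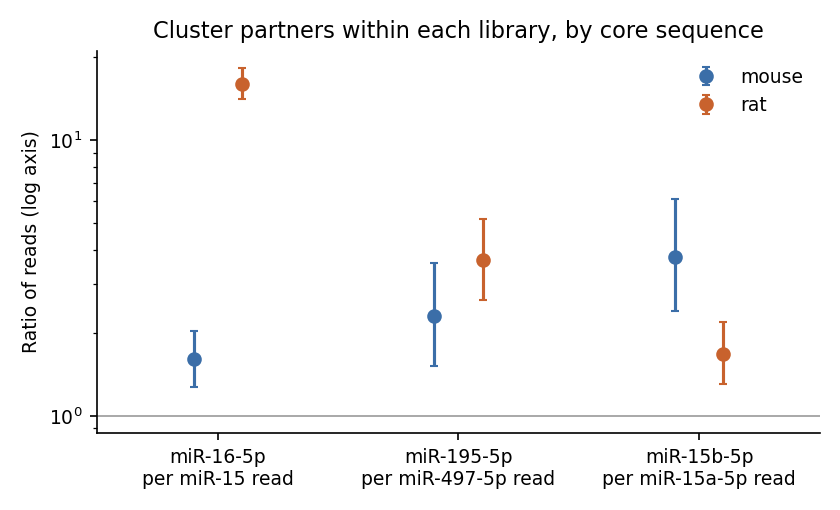
Ratio of reads between members within each library (log axis), by core sequence, for mouse (blue) and rat (orange). Bars are exact 95% counting intervals. miR-15b-5p and miR-15a-5p are of different clusters, and the other pairs are cluster partners. The ratio of miR-16-5p to the miR-15 arms is 1.61 in mouse and 16.02 in rat, and the intervals of miR-195-5p per miR-497-5p read overlap.

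The core match holds only reads that contain bases 2 to 20, so a start after base 2 or an end before base 20 is not seen by it. Among the reads it holds, every 5p read of the family began at base 1 of the mature sequence, except 1 rat miR-497-5p read. Of the other miRNAs without miR-10, 93.9% of mouse reads and 97.5% of rat reads did so. Reads under the family's names carried no mismatch in 93.2% of cases in mouse and 96.4% in rat. For all other miRBase entries these shares were 97.3% and 52.0%. The rat share is pooled over reads, and miR-10 was not left out of it. Rat miR-10a-5p had 106311 reads by name and 28057 by core, and rat miR-148b-3p had 23808 and 1133. The share is therefore weighted by such entries and does not describe rat miRNAs in general. A mismatch within the seed stood in 2 mouse reads (0.592%) and 17 rat reads (0.409%), compared with 0.313% and 0.338% for all other miRBase entries.

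The leading forms of miR-16-5p were the same in both libraries and differed at their last bases. They are printed as sequenced, with the seed in capitals.
miR-16-5p, 22 nt: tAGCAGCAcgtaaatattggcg
miR-16-5p, 21 nt: tAGCAGCAcgtaaatattggc
miR-16-5p, 23 nt: tAGCAGCAcgtaaatattggcgt

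The 22 nt form had 115 mouse reads (60.2%) and 2448 rat reads (58.8%), and the 21 nt form had 32 (16.8%) and 1224 (29.4%). There were 3.47 reads of 22 nt per read of 21 nt in mouse (2.38 to 5.18) and 2.06 in rat (1.92 to 2.21), counted over all reads of these lengths. The 23 nt form ending in T had 19 mouse reads (9.95%) and 287 rat reads (6.89%). Reads past base 22 made 15.7% of mouse (10.9 to 21.7) and 9.79% of rat miR-16-5p (8.91 to 10.7). The added base 23 was T in 28 of 30 mouse reads and 302 of 408 rat reads (74.0%), and A in 2 and 95 (23.3%). Both mouse hairpins have U after the mature sequence, so T there matches either, while the next base is U in Mir16-1 and A in Mir16-2. Of the mouse reads that reached base 24, all 9 had TT, and of the rat reads 10 of 17 had TT and 2 had TA. Those reads are too few to apportion the copies, and whether the added bases come from the hairpins was not tested. The most frequent substitution under miR-16-5p was G22A, with 7 mouse reads (4.32%) and 71 rat reads (1.87%).

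**Figure D5:**
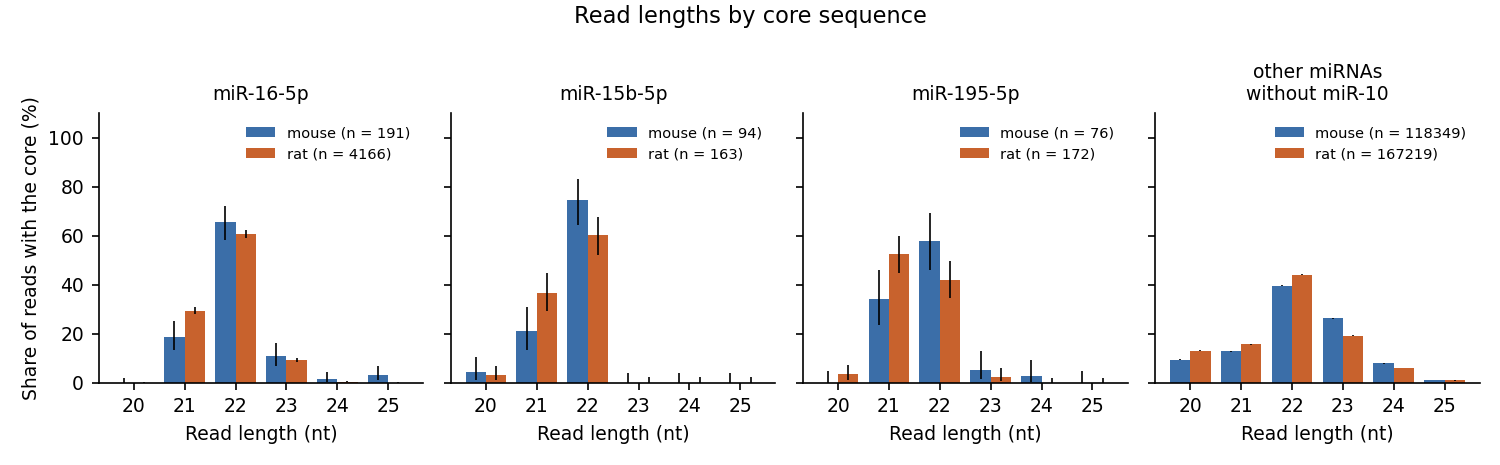
Read lengths (nt) of miR-16-5p, miR-15b-5p and miR-195-5p by core sequence, and of all other miRNAs without miR-10, as a percentage of the reads with the core in the mouse (blue) and rat (orange) library, with exact 95% counting intervals. The 22 nt bar of miR-16-5p stands at 65.4% in mouse and 60.7% in rat, and the 21 nt bars of all 3 members are higher in rat, with overlapping intervals for miR-15b-5p and miR-195-5p.

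The share of 21 nt reads was also higher in rat for miR-15b-5p, miR-195-5p, miR-497-5p and miR-15a-5p. The 3 most abundant forms of miR-15b-5p and of miR-195-5p are printed to show where the ends lie.
miR-15b-5p, 22 nt: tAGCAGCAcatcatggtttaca
miR-15b-5p, 21 nt: tAGCAGCAcatcatggtttac
miR-15b-5p, 20 nt: tAGCAGCAcatcatggttta
miR-195-5p, 21 nt: tAGCAGCAcagaaatattggc
miR-195-5p, 22 nt: tAGCAGCAcagaaatattggca
miR-195-5p, 20 nt: tAGCAGCAcagaaatattgg

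For miR-15b-5p the 22 nt form had 68 mouse reads (72.3%) and 98 rat reads (60.1%), and the 21 nt form 17 (18.1%) and 60 (36.8%). For miR-195-5p the 22 nt form, 1 base longer than the entry, had 44 mouse reads (57.9%) and 71 rat reads (41.3%), and the 21 nt form 26 (34.2%) and 89 (51.7%). By all forms, reads of 21 nt made 18.8% of mouse miR-16-5p (13.6 to 25.1) and 29.5% in rat (28.1 to 30.9). They made 21.3% (13.5 to 30.9) and 36.8% (29.4 to 44.7) of miR-15b-5p. They made 34.2% (23.7 to 46.0) and 52.3% (44.6 to 60.0) of miR-195-5p. The same held for miR-497-5p, with 18.2% (6.98 to 35.5) and 68.1% (52.9 to 80.9), and for miR-15a-5p, with 8% (0.984 to 26.03) and 64.9% (54.6 to 74.4). The intervals of miR-16-5p, miR-497-5p and miR-15a-5p did not overlap between the libraries, while those of miR-15b-5p and miR-195-5p did. Among all other miRNAs without miR-10, reads of 21 nt made 12.9% in mouse and 15.8% in rat.

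Near relatives of the family did not show the difference of miR-16-5p. miR-103-3p and miR-107-3p, whose seed is that of the family shifted by 1 base, had ratios of 0.65 and 2.03 by name. Their cores are the same, and by core they had 291 mouse and 579 rat reads together, a ratio of 0.67. Of the 9 seed relatives listed, these 2 were the ones with reads by name in both libraries. The X-linked neighbours of miR-322 were low. miR-351-5p had 35 mouse and 43 rat reads, a ratio of -0.02, and miR-450a-5p had 0 and 27, miR-542-3p 0 and 10. No miR-503 read was listed.

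Markers of other cells moved between the libraries too. In a library from many cells, fewer cells of a type and less RNA per cell cannot be told apart. In the mouse library all 8 sperm and spermatid mRNAs searched (Prm1, Prm2, Tnp1, Tnp2, Akap4, Odf1, Odf2 and Smcp) had reads, 1496 in all (127 rpm). Male germ line miRNAs, with 11 of 14 names detected in mouse and 13 of 14 in rat by core, summed to 42.0 and 1245 rpm, a ratio of 4.89 (4.76 to 5.02) beside 4.13 for miR-16-5p. The list did not move as one: of the 11 arms compared, 9 were at least 2-fold higher in rat and 1 lower. Of all 106 miRNAs compared by core, 44.3% were at least 2-fold higher and 16% lower. miR-34c-5p had 54 mouse and 8010 rat reads and miR-449a-5p 6 and 3055, while miR-470-5p had 111 and 1 and miR-871-3p 110 and 73.

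Leukocyte miRNAs, with 3 of 4 detected in mouse and 4 of 4 in rat by core, summed to 1.19 and 21.8 rpm, a ratio of 4.14 (3.42 to 5.08). miR-142a-5p had 4 and 122 reads, and miR-150-5p 5 and 160. Red blood cell miRNAs summed to 204 and 34.8 rpm by core, a ratio of -2.55 (-2.69 to -2.41), and went in different directions: miR-451a had 11 mouse and 498 rat reads (0.935 and 34.0 rpm), a ratio of 5.12, and miR-144 had 0 and 12. The core of miR-486-5p, which miR-3107-5p shares, had 2386 and 0 reads, while the name miR-486-5p had 80 and 0. By name the red blood cell sum was 7.14 and 5.53 rpm, a ratio of -0.37 (-0.83 to 0.09). miR-16-5p is itself known as an abundant miRNA of blood cells. miR-16-5p was higher in rat, as were the leukocyte sum, the germ line sum and miR-451a. Of all 106 miRNAs compared by core, 44.3% were at least 2-fold higher in rat, so a shared direction does not set these apart. The core of miR-486-5p, of the same list as miR-451a, went the other way. The red blood cell sum was lower in rat by core, while by name its interval included 0.

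Epithelial miRNAs, 7 of 7 detected in both by core, summed to 258 and 404 rpm, a ratio of 0.65 (0.58 to 0.71). Their arms went both ways, with 3 of the 7 compared at least 2-fold higher in rat, among them miR-429-3p at 2.28, and miR-200c-3p lower at -1.75. The share higher was close to the 44.3% of all 106 miRNAs compared by core. Smooth muscle miRNAs, 2 of 2 detected in both, had 1038 and 1847 rpm, a ratio of 0.83, with miR-143-3p at 0.84 and miR-145a-5p at -0.39. The endothelial miR-126a had 16.3 and 28.9 rpm, a ratio of 0.82. The sums of these 3 lists, though not all their arms, lay near the ratio of the family without miR-16-5p, 0.78. All of these values lay within the quartiles (-0.18 to 2.13) of the 106 miRNAs compared by core, whose median was 0.84. The nearness is thus not particular to these lists. The part of any of these cells in the miR-16-5p difference was not tested.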

How the data were processed

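Small RNA of caput epididymal sperm was measured in 1 mouse and 1 rat library, made from RNA isolated with Trizol and selected at 18 to 45 nt, per the labels' protocols. The deposited tables hold unnormalised read counts per distinct sequence with 1 matched entry and at most 2 mismatches, per the file headers. Bowtie 0.12.7 and the builds mm9 and rn5 are listed, without a role, per the submitters' processing notes. Adapter trimming is not given in the sources used here.

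From these counts, levels were computed per 1000000 listed reads (floor of 3 reads, 0.255 rpm in mouse and 0.205 in rat) with Python 3.11.15, pandas 2.3.3 and scipy 1.17.1. Sequences on the minus strand were turned to the read, and the closing sum line of the mouse table was left out. Names were paired without species prefix. A name without an arm was paired with the more abundant unmatched arm, and mouse miR-195a with rat miR-195. miRNAs were compared with reads in both libraries and at least 100 over both. Cores came from mouse RefSeq (1619 cores) and from the most abundant exact read of listed names not among them (117). Mouse mRNA reads were counted by 18-nt words of GENCODE vM21 transcripts. The scripts were tested on simulated data.

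Named were all members with a read, listed miRNAs with at least 10 reads that bear on a result, the 5 nearest to miR-16-5p, and the 3 leading forms of members with at least 100 reads. The rule would name every listed miRNA with at least 10 reads, and the others are given as sums. Forms of miR-15a-5p and miR-16-5p beyond these were chosen after their values were seen. The members and lists were chosen with earlier results of these data known. No test was made, since each group is 1 library. Alternatives were other totals, core sequences, reads without mismatch, reads of 20 to 24 nt, distinct sequences, a pseudocount of 1 and a minimum of 10 reads.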

Additional observations from a re-analysis of the deposited data

Results flagged for a closer look

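3 values were singled out because they hold reads outside the counts of the members' own entries and exceed the 3 reads that a count of 0 allows. Under GenBank records there were 91 mouse and 567 rat reads that carried a family core. Under no entry of its own name, rat miR-15a-5p had 97 reads by core, of which 20 stood under miR-15b-5p and so within the family's sum by name. There was no control sample to set them against.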

How the results depend on the processing

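No paired analysis was possible because each species has 1 library, and leaving out a replicate could not be done for the same reason. Of the ratios recomputed, miR-497-5p alone changed sign, within its interval, to -0.28 without SNORD58. miR-15a-5p, with no ratio by name, was higher in mouse by name and in rat by core sequence. The 5p sum, 3.32 in the report, was 4.77 scaled to miRNA reads, 2.71 without SNORD58, 3.09 scaled to miRNA reads without miR-10, 3.15 by core sequence and 2.15 in distinct sequences. miR-16-5p, at 4.23, was 5.68, 3.62 and 4.004 under these scalings and 2.90 in distinct sequences. Its gain in share, 43.0 points, was 24.2 in distinct sequences. miRNAs at least 2-fold higher numbered 69 with a minimum of 10 reads and 72 scaled to miRNA reads, against 45. Those at least 2-fold lower numbered 25, 5 and, in distinct sequences, 4, against 13. The share of higher calls was 94.2% in distinct sequences. The 3p sum stayed between 0.75 and 2.80. Other causes of these shifts than the totals themselves were not tested. The core match of the 2-fold counts and the removal of the 20 rat miR-15a reads were chosen after seeing the data. Depth limits miR-322-5p and the 3p arms, each under 20 reads in either library.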
